A study of Mus musculus with 8 samples.

Results

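The genes described here were 49 interferon-stimulated genes, fixed as a list of symbols that covers sensors, transcription factors, antiviral effectors and interferon-induced GTPases, of 52143 genes in the deposited expression table. Each symbol was looked up in the table, and where a symbol was repeated the entry with the highest mean was used. Expression was the authors' log2(TPM + 1), where TPM is the length-corrected share of a gene's transcripts in its library, scaled to a fixed total. Of the 49 members, 35 reached 1 TPM in 4 or more of the samples and were tested among 13164 such genes, and 14 stayed below this filter.

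The study asked how human SIGLEC12, a gene of the sialic acid-binding lectin family, acts in the intestinal epithelium. Samples were distal colon of mice 8 weeks old at the start of treatment, 4 from Villin1-Cre-ERT littermates with the Cre alone (controls). The other 4 samples came from animals called SIGLEC12-Villin1-Cre-ERT, which also carried 1 floxed SIGLEC12 allele at ROSA26 behind a CAG promoter and a loxP-flanked stop (Siglec-XII). Every animal received tamoxifen on 5 days, which releases the transgene from its stop only where the Villin1 promoter drives Cre-ERT, the epithelium of villi and crypts. Tissue was taken on day 12, which the labels give as 7 days after the last injection, and no carcinogen or inflammatory agent had been given. Since the series design speaks of fewer mice per condition than there are samples and the Methods of technical replicate libraries, p-values measure the spread between these samples, which may in part be technical. The labels were not checked against the transgene, which was not analysed here.

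Interferons are secreted alarm signals. Type I interferons and the epithelial type III interferons signal through JAK1 and TYK2 to a complex with STAT2 and IRF9, which binds an element built on a pair of GAAA letters with any 2 bases between them (here the double GAAA) in front of its target genes, whereas interferon gamma acts on the element TTCNNNGAA. In the gut a low tonic level of this program is present in epithelium without infection, and its products include the IFIT, OAS and IFITM antiviral proteins and the guanylate-binding and immunity-related GTPases.

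Facts of the whole table that touch the members were few. TPM keeps no record of sequencing depth, so the reads behind a value are unknown. The median tested gene lay between 3.66 and 3.87 log2(TPM + 1) in the controls and at 3.802, 3.74, 3.46 and 3.31 in Siglec-XII samples 1 to 4, and no sample was rescaled for this, so differences are given beside the median difference of all tested genes, which was -0.15 on the log2 scale. The 10 markers of colon epithelium summed to between 11350 and 15930 TPM in controls and between 11360 and 15480 TPM in Siglec-XII.

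The elements named above could be looked for in 34 members, for which the RefSeq set of promoter windows (GRCm38.p6) held an entry. Within the 250 bases before the start, 18 of these 34 members (52.9%) held the double GAAA on either strand, against 3.46% of 27025 genes with a window, and 9 members (26.5%) held at least 2 copies, overlapping ones counted, against 0.211% of genes. TTCNNNGAA, which reads the same on both strands, was in 10 of the 34 (29.4%) against 8.13% of genes. A match is a description of letters and no proof of binding, and Oas2, Mx1, Mx2, Usp18, Ifi27, Ifi27l2a, Ifi27l2b, Dhx58, Rtp4, Zbp1, Gbp4, Gbp6, Iigp1, Parp9 and Parp14 had no entry.

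The stretches that follow are 60 bases each, 5′ to 3′ along the gene's strand and ahead of its RefSeq start. They are examples picked by hand among the members that carry the double GAAA, and further members that carry it are not shown. Capitals mark the double GAAA, or its reverse complement (a pair of TTTC with any 2 bases between), and, in Igtp and Irgm2, also a TTCNNNGAA beside it. They lie at chr4:156200856-156200915 (minus strand) for Isg15, chr19:34640769-34640828 (plus) for Ifit1, chr19:34583365-34583424 (plus) for Ifit3, chr19:34607761-34607820 (plus) for Ifit3b, chr5:120907526-120907585 (minus) for Oas1a, chr5:120887614-120887673 (minus) for Oas1g, chr7:140955988-140956047 (minus) for Ifitm2, chr11:58199491-58199550 (plus) for Igtp and chr11:58214882-58214941 (plus) for Irgm2.
Isg15: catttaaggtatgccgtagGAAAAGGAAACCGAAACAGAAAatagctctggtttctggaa
Ifit1: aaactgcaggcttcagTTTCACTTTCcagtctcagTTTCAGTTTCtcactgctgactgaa
Ifit3: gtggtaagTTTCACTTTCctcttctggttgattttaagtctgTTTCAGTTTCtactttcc
Ifit3b: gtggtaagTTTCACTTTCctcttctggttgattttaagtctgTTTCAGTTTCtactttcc
Oas1a: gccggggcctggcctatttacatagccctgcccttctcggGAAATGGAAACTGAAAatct
Oas1g: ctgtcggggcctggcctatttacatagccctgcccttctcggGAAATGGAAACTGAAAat
Ifitm2: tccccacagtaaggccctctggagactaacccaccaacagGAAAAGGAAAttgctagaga
Igtp: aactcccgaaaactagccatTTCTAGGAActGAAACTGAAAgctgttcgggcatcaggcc
Irgm2: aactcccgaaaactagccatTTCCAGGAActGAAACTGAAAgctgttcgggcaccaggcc
None of the stretches overlaps a GENCODE M21 exon, but that of Irgm2 lies within the gene as GENCODE draws it (58199618-58222782 on chromosome 11), in an intron of its longest transcript. Isg15 held 3 overlapping copies, and the stretch shown spans bases 97 to 38 before the start. Ifit3 and Ifit3b did not differ in any of the 60 bases shown, Igtp and Irgm2 differed in 2, and Oas1a and Oas1g shared a run of 56 bases. Ifitm1, Ifitm3, Irf9, Oasl1 and Oasl2 had no double GAAA in this window.

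The first question was how high the members stood in control colon. Their mean control levels ran from 0.0999 TPM for Mx2 to 282 TPM for Ifitm2, with 23 members at a mean of 10 TPM or more and 10 members under 1 TPM. Both ends of this range held antiviral effectors, so the program was present in parts and near zero in others.

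**Figure D1:**
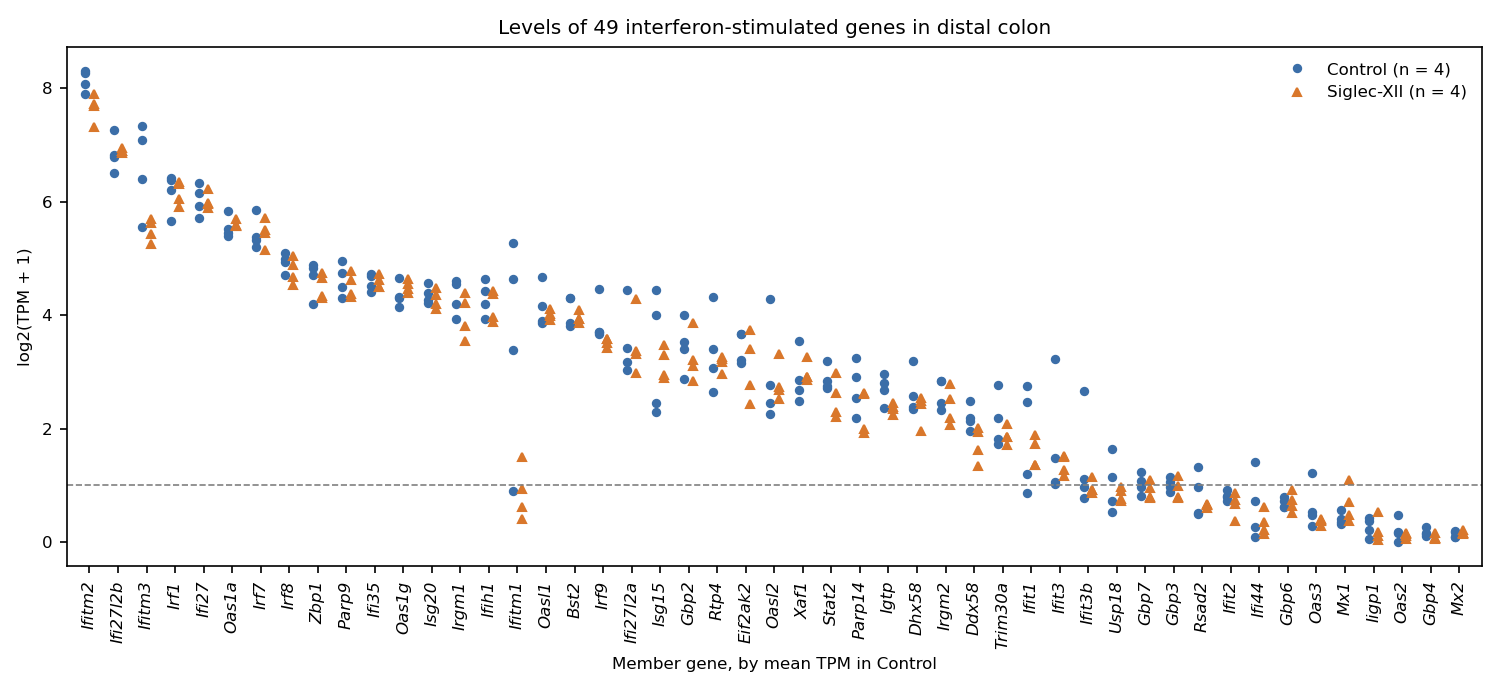
Levels of the 49 members as log2(TPM + 1) (vertical axis), ordered by mean TPM in control, with a point for each of 4 control and 4 Siglec-XII samples and a dashed line at a TPM of 1. Ifitm2 stood highest, Ifitm1 and Isg15 spread widely among the controls, and Mx2, Gbp4, Oas2 and Iigp1 lay near zero in all 8 samples.

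The 2 IFITM proteins among the 3 highest members sit in membranes and block the entry of enveloped viruses. Ifitm2 was at 316, 307, 237 and 268 TPM in controls 1 to 4 (282 ± 36.8, SD, n = 4), and Ifitm3 at 159.8, 135, 46.2 and 83.5 TPM (106 ± 51.0, SD, n = 4). Ifitm3 was thus low in control 3 and high in controls 1 and 2, a spread that Ifitm2 showed to a smaller degree. Between them stood Ifi27l2b, a member of the IFI27 family of small mitochondrial or membrane proteins, at 89.5, 152, 109 and 113 TPM, and the related Ifi27 was at 70.3, 79.9, 51.7 and 59.4 TPM. Both IFI27 family genes were highest in control 2.

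Transcription factors of the pathway were also among the 10 highest members. Irf1, an early factor downstream of interferon gamma, was at 49.7, 84.3, 82.6 and 73.0 TPM in controls 1 to 4. Irf7, the amplifier of type I interferon genes, was at 40.8, 56.8, 35.8 and 39.1 TPM, and Irf8 was at 25.3, 30.7, 33.1 and 29.6 TPM. Among the controls, Irf1 and Irf8 were lowest in control 1 and Irf7 in control 3.

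Sensors and enzymes of RNA defense followed. Oas1a, which makes the 2-5A messenger that activates RNase L, was at 42.7, 56.3, 41.0 and 44.8 TPM in the controls. The nucleic acid sensor Zbp1 was at 17.3, 28.6, 25.2 and 27.4 TPM and Parp9, an ADP-ribosylation cofactor, at 18.7, 30.2, 25.8 and 21.6 TPM. Both of these were lowest in control 1 and highest in control 2 among the controls. Oas1a shared 68.8% of its 31-base windows with other genes, nearly all of them with Oas1g, so the split of reads between these copies is uncertain.

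Below the filter stayed 14 members, and 8 of them reached a TPM of 1 in some sample. Ifit3b was at 1.18, 5.33, 0.727 and 0.966 TPM in the controls, Usp18, the protease that removes ISG15 and dampens receptor signaling, at 1.23, 2.12, 0.452 and 0.646 TPM, and Rsad2 (viperin) at 0.430, 1.504, 0.419 and 0.959 TPM. Control 2 was the highest control for all 3 genes. The other 5 were Oas3, Ifi44, Mx1, Gbp3 and Gbp7, whose highest values in any sample were 1.34, 1.66, 1.14, 1.23 and 1.36 TPM. Ifit2, Oas2, Mx2, Gbp4, Gbp6 and Iigp1 did not reach 1 TPM anywhere, and Oas2 was listed at 0 in control 3. Ifit3 and Ifit3b shared most of their 31-base windows (61.8% and 55.3%), and Gbp6 shared 74.3%, so the division of reads among these copies is uncertain too.

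The interferons themselves were at or near zero. Ifnb1, Ifna1, Ifna2, Ifna4, Ifna5, Ifna13, Ifng and Ifnl3 were listed at 0 in all 8 samples, and Ifnz, Ifnk, Ifne and Ifnl2 did not pass 0.248 log2(TPM + 1) in any. Their receptors were all above the filter. Ifngr1, the ligand-binding chain of the interferon gamma receptor, stood highest at 164, 255, 246 and 247 TPM in the controls, and its partner Ifngr2 at 95.0, 112, 113 and 113 TPM. The type I receptor chains were lower, with mean control levels of 11.2 ± 1.12 TPM for Ifnar1 and 4.26 ± 0.720 TPM for Ifnar2 (SD, n = 4). For the type III receptor, mean control levels were 4.44 ± 0.797 TPM for Ifnlr1 and 63.3 ± 4.93 TPM for Il10rb, the chain it shares with the interleukin-10 family (SD, n = 4). Jak1, Jak2 and Tyk2, the receptor kinases, had control means of 32.2, 18.1 and 10.7 TPM, and Stat2 and Irf9, parts of the type I and III transcription complex, 6.41 and 14.2 TPM.

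**Figure D2:**
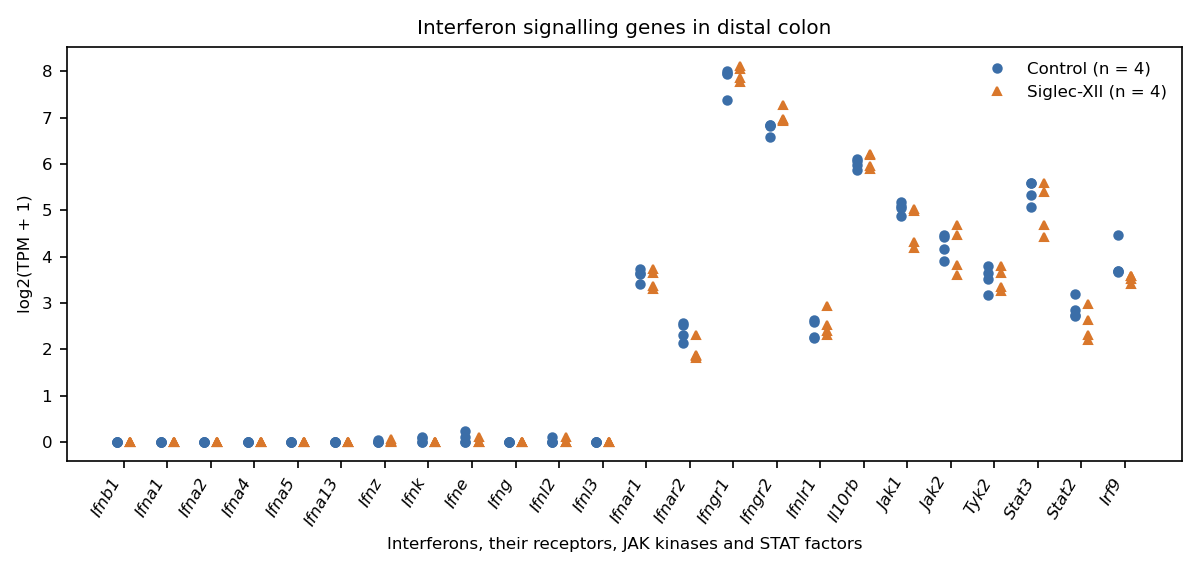
Levels of 12 interferon genes, 6 receptor chains, JAK kinases, Stat3, Stat2 and Irf9 as log2(TPM + 1) (vertical axis), with a point for each of 4 control and 4 Siglec-XII samples. The interferons lay at 0.248 or less, whereas the lowest value of a receptor chain was 1.82 (Ifnar2).

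The second question was whether the members moved together over the 8 samples. They did so mainly through control 2, which was the highest of the 8 samples for 28 of 35 tested members (80%), whereas it was highest for 26.6% of all tested genes. The mean of the tested members was 4.53 log2(TPM + 1) in control 2 and between 3.67 and 3.93 in the other 7 samples. Control 2 exceeded the mean of the other controls by more than 0.5 log2 units in 16 of 35 members (45.7%) against 4.53% of tested genes, and after each sample was centered on its median in 14 members against 2.89% of genes.

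The largest excesses of control 2 over the mean of the other controls were 2.31 log2 units for Ifitm1, whose values are given with the IFITM genes, 2.03 for Ifit3, 1.79 for Oasl2 and 1.53 for Isg15. Isg15, a ubiquitin-like modifier whose window is shown above, was at 15.1, 20.8, 3.91 and 4.47 TPM in controls 1 to 4 and at 6.71, 6.47, 10.1 and 8.79 TPM in Siglec-XII samples 1 to 4. Controls 1 and 2 thus lay above, and controls 3 and 4 below, every Siglec-XII sample. Ifit1, which binds viral RNA caps, was at 4.56, 5.71, 0.816 and 1.30 TPM in the controls and at 2.70, 1.55, 2.33 and 1.57 TPM in Siglec-XII, the same arrangement.

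Ifit3, the partner of Ifit1, was at 1.80, 8.34, 1.04 and 1.08 TPM in the controls and 1.82, 1.25, 1.88 and 1.41 TPM in Siglec-XII. Oasl2, an OAS-like protein, was at 5.81, 18.4, 3.76 and 4.46 TPM in the controls and 5.42, 4.72, 5.65 and 8.97 TPM in Siglec-XII. In both, control 2 alone exceeded every Siglec-XII sample. Rtp4 (19.1 TPM in control 2 against 5.25 to 9.61 TPM in the other controls) and Ifi27l2a (20.7 TPM against 7.15 to 9.69 TPM) had the same outlying control, although Ifi27l2a was also high in Siglec-XII sample 4, at 18.5 TPM.

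By role, control 2 was highest for both tested IFIT genes, all 4 tested OAS genes, all 4 cytosolic sensors, all 3 tested immunity-related GTPases and all 3 genes of the IFI27 family. It was highest for 1 of 3 IFITM genes (Ifitm1) and did not lead for Gbp2, the tested guanylate-binding protein, which was at 15.03 TPM in control 3 and 9.54 TPM in control 2. The median excess in control 2 was 0.39 log2 units in 13 tested members with the double GAAA in the window and 0.50 in 14 without, and 3 of the 13 and 2 of the 14 exceeded 1 log2 unit.

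**Figure D3:**
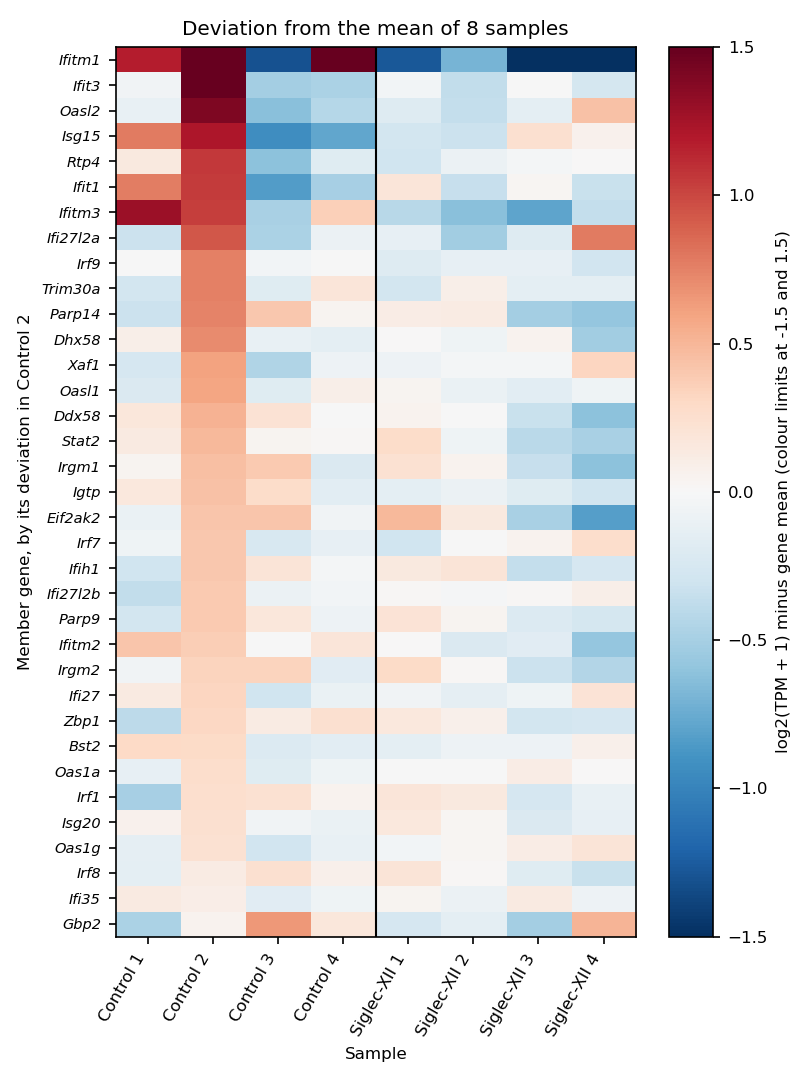
Each tested member (rows, ordered by control 2) in each sample (columns), as log2(TPM + 1) minus the mean of the 8 samples, red above and blue below. The column of control 2 is red for nearly every member, and Ifitm1 and Ifitm3 are the rows that separate most of the controls from Siglec-XII.

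Over all 595 pairs of tested members the median Pearson r across 8 samples was 0.456, against 0.320 for all pairs of tested genes, and with the group means subtracted it was 0.444 against 0.300. Without control 2 the median among members was 0.015, with 291 of 595 pairs below zero, against 0.310 for all tested genes. The samples share a scale, since the median gene of each also moved, and after median centering the values were 0.358 for members and 0.0400 for all genes.

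The member that followed the others most closely was Irf9, whose r with the mean of the other 34 was 0.956 (Spearman's rho = 0.786, n = 8). It fell to 0.646 when control 2 and Siglec-XII sample 3, the samples farthest from the median of that mean, were left out. For Ifit3 the corresponding values were 0.898, 0.214 and 0.358, and for Oasl2 0.759, 0.238 and -0.412. For Ifit3 and Oasl2 the relation to the rest therefore rested on those 2 samples, whereas Irf9 kept part of it. Gbp2 had the lowest r, at -0.086.

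The tested genes outside the list that were most like the mean of the members after subtraction of group means (r over 8 samples) were Vsig2 (0.983), Med7 (0.963), Mkrn2 (0.963), Fbxo7 (0.959), Sdhb (0.955), 9130008F23Rik (0.954), Rundc3a (0.953), Cox16 (0.950), C130046K22Rik (0.950) and Ddx60 (0.948). Control 2 was the highest sample for 8 of these 10. Only Ddx60, an RNA helicase, was also in the list of other interferon pathway genes. Without control 2 the r of the 10 genes ran from 0.533 (Cox16) to 0.965 (Ddx60), with 0.959 for C130046K22Rik, 0.877 for 9130008F23Rik and 0.813 for Vsig2.

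The third question was whether the members differed between Siglec-XII and control colon. None of the 35 tested members passed a Benjamini-Hochberg adjusted p of 0.05 in limma, and 0.038% of tested genes did. At an unadjusted p of 0.05, 5 members (14.3%) were lower in Siglec-XII, where 7.67% of tested genes were lower, and 0 members were higher, where 1.19% of genes were. Without control 2, control 3, Siglec-XII sample 3 or Siglec-XII sample 4 the count was 3 in each case, and without both of these Siglec-XII samples it was 1. The shares over all tested genes are not given for these refits, so their counts cannot be set against such a share.

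Of the tested members, 29 lay below zero and 6 above, with a median log2 difference of -0.15, and of all tested genes 78.1% lay below zero, with the same median of -0.15. The median of the members was -0.02 without control 2 and 0.06 after median centering, with 20 of 35 members then above zero, so the direction of the list as a whole turned with the scaling. Median centering moves the difference of every tested gene by the same amount, so this turn is not particular to the members. The share of all tested genes above zero after centering is not given here.

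**Figure D4:**
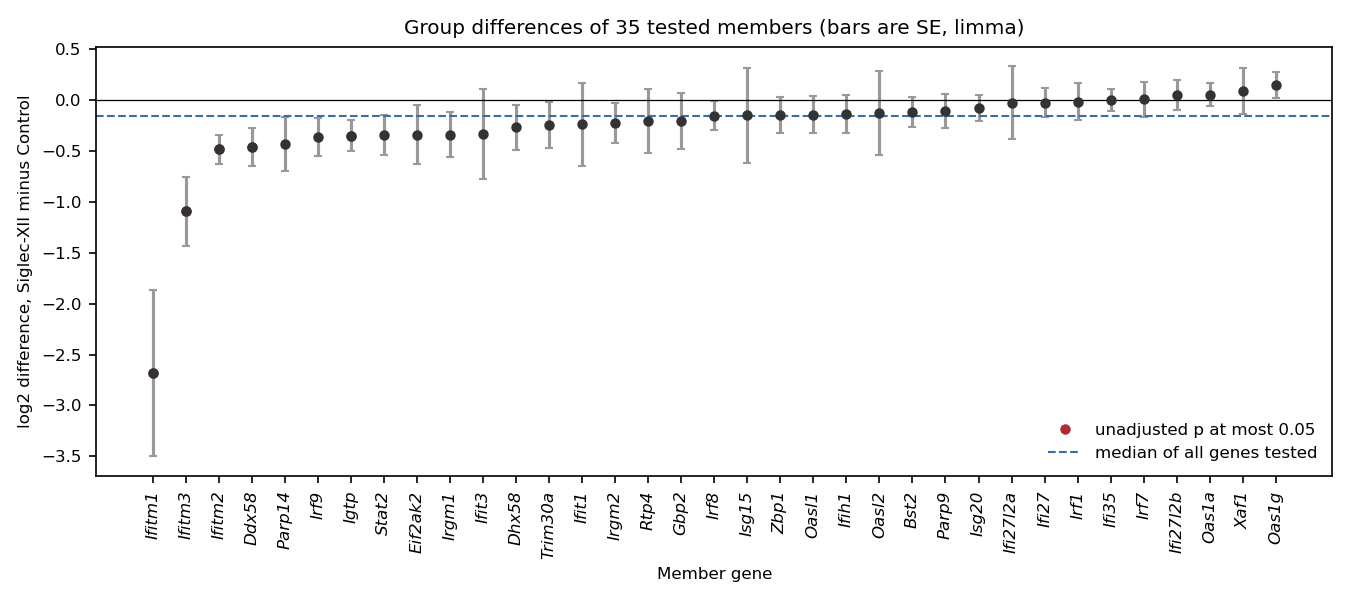
Log2 difference (Siglec-XII minus control) of each of 35 tested members with its standard error from limma, red where the unadjusted p was at most 0.05, and a dashed line at the median of all tested genes (-0.15). Ifitm1 and Ifitm3 lie lowest, and most members lie near the dashed line.

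All 3 IFITM genes were among the 5. Ifitm1 was at 9.43, 37.7, 0.861 and 23.8 TPM in controls 1 to 4 and at 0.912, 1.84, 0.323 and 0.529 TPM in Siglec-XII samples 1 to 4. Thus 3 controls lay above all Siglec-XII samples, and control 3 lay among them. The log2 difference was -2.68 ± 0.820 (SE; limma unadjusted p = 0.00965, adjusted p = 0.515).

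Ifitm3 was at 48.5, 41.9, 37.4 and 50.5 TPM in Siglec-XII, all below controls 1, 2 and 4 (159.8, 135 and 83.5 TPM), whereas control 3 (46.2 TPM) lay among them. Its log2 difference was -1.09 ± 0.341 (SE; limma unadjusted p = 0.0106, adjusted p = 0.515). Ifitm2 was at 238, 204, 210.5 and 158 TPM in Siglec-XII, and only Siglec-XII sample 1 reached control 3 (237 TPM). Its log2 difference was -0.48 ± 0.143 (SE; limma unadjusted p = 0.00834, adjusted p = 0.515).

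Control 3 was the control closest to Siglec-XII in all 3 IFITM genes. Without it, the log2 differences were -3.56 for Ifitm1 (limma adjusted p = 0.0807) and -1.44 for Ifitm3 (adjusted p = 0.157). Leaving out the control closest to Siglec-XII can only enlarge these differences, so the refit is no evidence for them. With control 1, 2 or 4 left out instead, the log2 differences of Ifitm1 were -2.74, -2.10 and -2.32. Those of Ifitm3 were -0.85, -0.93 and -1.16. Over all alternatives adjusted p ranged from 0.0807 to 0.991 for Ifitm1 and from 0.157 to 0.991 for Ifitm3, and no alternative brought any named member past an adjusted p of 0.05. Ifitm2 shared 55.5% of its 31-base windows with other genes, mostly the overlapping gene model Gm45717, which was listed at 0 in 7 samples, and Ifitm3 shared 20.5%.

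The 3 genes lie side by side on chromosome 7 (GRCm38, GENCODE M21), Ifitm2 at 140954837-140955987 on the minus strand, Ifitm1 at 140967221-140969825 on the plus strand and Ifitm3 at 141009586-141010770 on the minus strand. The other 10 tested genes within 100 kb of the cluster, read after the IFITM values were seen, had log2 differences between -0.44 (Pkp3) and 0.14 (Cox8b). The unadjusted p in limma was 0.0719 for Pkp3 and higher for the other neighbors. Nlrp6 and Pgghg, which flank the cluster on one side, had differences of -0.0009 and -0.34. Ifitm6, in the same stretch but below the filter, was at 1.09, 0.949, 0.114 and 0.286 log2(TPM + 1) in controls 1 to 4. In Siglec-XII samples 1 to 4 it was at 0, 0.114, 0.219 and 0, so control 3 again lay among them, at values near zero. Ifitm5, also below the filter, did not pass 0.093 in any sample.

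**Figure D5:**
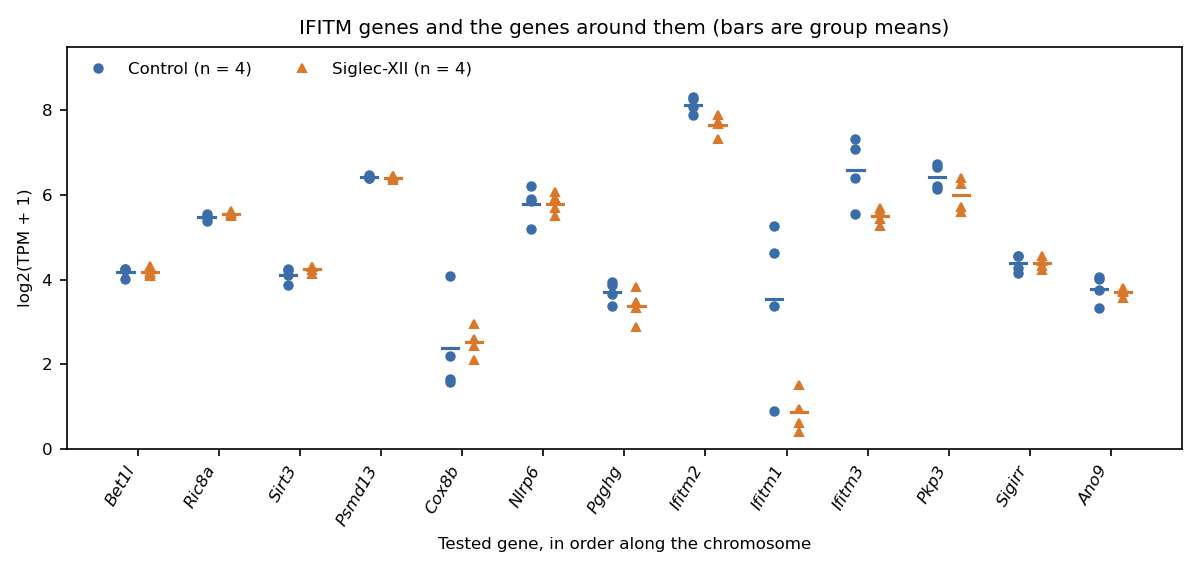
The 13 tested genes within 100 kb of the IFITM cluster, in chromosomal order, as log2(TPM + 1) (vertical axis), with a point for each of 4 control and 4 Siglec-XII samples and bars at group means. Ifitm1 and Ifitm3 show the widest separation, with control 3 among the Siglec-XII samples.

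IFITM genes are also expressed by leukocytes and stromal cells, and some markers of such cells differed between the groups. S100a9, a calcium-binding protein of neutrophils, was at 13.6, 55.7, 17.2 and 89.1 TPM in controls and 3.64, 4.80, 1.25 and 5.39 TPM in Siglec-XII, and S100a8 ran parallel (9.61 to 40.9 TPM against 0.957 to 4.03 TPM). In both genes every control, control 3 included, lay above every Siglec-XII sample. The receptor Csf3r was at 0.0138, 1.52, 0.0355 and 0.806 TPM in controls 1 to 4 and at most 0.136 TPM in Siglec-XII. Cxcr2 was at 0.225, 1.31, 0.140 and 0.661 TPM in the controls and at most 0.217 TPM in Siglec-XII. Both were highest in controls 2 and 4, as Ifitm1 was, with control 3 among the Siglec-XII samples. In control 1, Csf3r also lay among the Siglec-XII samples and Cxcr2 just above them, whereas Ifitm1 was at 9.43 TPM, well above them. Ifitm3 was highest in controls 1 and 2. These neutrophil genes were picked from the list with their values in view. Ly6g, the highest marker of the list, overlapped between the groups. It was at 242, 276, 278 and 328 TPM in controls 1 to 4 and at 273, 291, 230 and 356 TPM in Siglec-XII samples 1 to 4. The 8 neutrophil markers summed to 265 to 459.7 TPM in controls and 232 to 365 TPM in Siglec-XII, and without Ly6g, the highest, to 23.4 to 131.5 TPM and 2.27 to 8.77 TPM. Mpo, Ngp and Camp were below 0.1 TPM throughout.

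Macrophage markers (9 of 10 above 0.1 TPM in some sample, Cd163 not) summed to 64.1 to 96.8 TPM in controls and 52.0 to 66.0 TPM in Siglec-XII, smooth muscle markers to 645 to 1028 TPM and 310.5 to 665 TPM, and endothelial markers to 5.97 to 8.90 TPM and 4.41 to 5.98 TPM. Without Cd14, the highest, the macrophage sums were 18.6 to 57.05 TPM in controls and 14.3 to 34.8 TPM in Siglec-XII. Without Tagln the smooth muscle sums were 480 to 764 TPM and 186 to 471 TPM. Without Pecam1 the endothelial sums were 4.19 to 6.43 TPM and 3.425 to 4.88 TPM. T cell markers summed to at most 4.97 TPM and fibroblast markers to 13.2 to 41.2 TPM in controls and 17.0 to 76.0 TPM in Siglec-XII. B cell and plasma cell markers, mostly Xbp1, summed to 121 to 156 TPM and 126 to 151 TPM, and without Xbp1 to 1.60 to 17.96 TPM in controls and 0.975 to 2.53 TPM in Siglec-XII. Siglech, the defining marker of plasmacytoid dendritic cells, was at 0.20 TPM or less, and the sum of that list (2074 to 3059 TPM over both groups) came almost wholly from Klk1 and Ly6d. In such bulk tissue fewer cells of a type and less RNA per cell cannot be told apart, and the part of these cells in the IFITM values was not tested.

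The other members past an unadjusted p of 0.05 differed less. Ddx58, which encodes the RNA sensor RIG-I, was at 3.38, 4.58, 3.54 and 2.88 TPM in controls and 3.03, 2.86, 2.08 and 1.53 TPM in Siglec-XII (log2 difference -0.46 ± 0.189, SE; limma unadjusted p = 0.0386, adjusted p = 0.515). Igtp, an immunity-related GTPase, was at 5.43, 6.82, 6.01 and 4.17 TPM in controls and 4.22, 4.46, 4.12 and 3.72 TPM in Siglec-XII (-0.35 ± 0.152, SE; limma unadjusted p = 0.0470, adjusted p = 0.515). In both genes the groups overlapped through control 4, and Ddx58 was lowest in Siglec-XII samples 3 and 4, the samples with the lowest median over all genes.

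Irf9, which had no double GAAA in its window, was the 1 tested member whose groups did not overlap, where 4.06% of tested genes lay wholly lower and 1.05% wholly higher in Siglec-XII. It was at 11.99, 21.04, 11.7 and 11.98 TPM in controls and 10.4, 11.0, 10.9 and 9.66 TPM in Siglec-XII (log2 difference -0.36 ± 0.187, SE; limma unadjusted p = 0.0866, adjusted p = 0.515). Apart from control 2 the groups lay close, and without control 2 the difference was -0.17. After median centering the groups of 0 members stayed apart. The count of members whose groups did not overlap was 4 without control 2 (1 lower, 3 higher), 4 without control 3, 3 without control 4 and 4 without Siglec-XII sample 1. Groups separate more easily with a sample left out, and the shares over all tested genes are not given for these fits. The rise in the count can therefore not be judged.

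Stat2 and Parp14 completed the 8 members with the smallest p. Stat2 was at 6.17, 8.14, 5.73 and 5.57 TPM in controls and 6.90, 5.21, 3.93 and 3.64 TPM in Siglec-XII (log2 difference -0.34 ± 0.198, SE; limma unadjusted p = 0.118). Parp14 was at 3.54, 8.45, 6.50 and 4.84 TPM in controls and 5.13, 5.16, 2.97 and 2.78 TPM in Siglec-XII (-0.43 ± 0.266, SE; limma unadjusted p = 0.137). Both overlapped and were lowest in Siglec-XII samples 3 and 4.

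The most abundant members outside the IFITM family differed little against their errors, with an unadjusted p of 0.306 or more in limma. Log2 differences were 0.05 ± 0.146 for Ifi27l2b, -0.01 ± 0.180 for Irf1, -0.02 ± 0.145 for Ifi27, 0.05 ± 0.112 for Oas1a, 0.01 ± 0.168 for Irf7, -0.15 ± 0.139 for Irf8, -0.14 ± 0.178 for Zbp1 and -0.10 ± 0.169 for Parp9 (SE). Their Siglec-XII values ran from 114 to 123 TPM for Ifi27l2b, from 58.99 to 80.3 TPM for Irf1, from 57.9 to 73.8 TPM for Ifi27 and from 46.5 to 50.6 TPM for Oas1a. Irf7 ran from 34.3 to 51.5 TPM, Irf8 from 22.1 to 32.1 TPM, Zbp1 from 18.8 to 25.7 TPM and Parp9 from 18.9 to 26.5 TPM, all overlapping the controls.

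The widely spread members differed no more clearly. Log2 differences were -0.15 ± 0.467 for Isg15, -0.24 ± 0.409 for Ifit1, -0.33 ± 0.442 for Ifit3 and -0.12 ± 0.414 for Oasl2 (SE), and without control 2 they were 0.23, 0.07, 0.18 and 0.32. The direction of these genes thus turned without that sample. That of Isg15 also turned without control 1 (0.09). Those of Isg15 and Oasl2 turned with median centering and with quantile normalization too. Spread within a group was larger in controls than in Siglec-XII for 27 of 35 members (77.1%) against 38.3% of tested genes, and without control 2 for 19 of 35 (54.3%) against 38.8%.

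By role, median log2 differences of tested members were -1.09 for the 3 IFITM genes, -0.34 for 3 immunity-related GTPases, -0.28 for 2 IFIT genes, -0.20 for 4 cytosolic sensors, -0.15 for 5 transcription factors, -0.11 for 3 other antiviral effectors (Isg20, Bst2 and Eif2ak2), -0.03 for 4 OAS genes and -0.02 for 3 IFI27 family genes, with -0.15 over all tested genes. The IFITM genes were the group whose tested members all passed an unadjusted p of 0.05 on the deposited scale with all samples. After median centering Ifitm2 no longer passed (log2 difference -0.27, limma unadjusted p = 0.0713). Without Siglec-XII samples 3 and 4, Ifitm1 and Ifitm3 no longer passed (limma unadjusted p = 0.0827 and 0.0592).

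Of 107 other genes of the interferon pathway, 68 were tested, 0 passed an adjusted p of 0.05 in limma, and at an unadjusted p 6 were lower (8.82%) and 1 higher (1.47%), near the shares over all tested genes given above. Their median log2 difference was -0.17. Among receptors, Ifngr2 was higher and did not overlap, at 124, 119.9, 122 and 153 TPM in Siglec-XII against 112 or 113 TPM in controls 2, 3 and 4 and 95.0 TPM in control 1 (log2 difference 0.26 ± 0.106, SE; limma unadjusted p = 0.0388). Ifnar2 was lower, at 2.61, 2.68, 2.52 and 3.93 TPM in Siglec-XII against 3.40 to 4.96 TPM in controls (-0.42 ± 0.164, SE; limma unadjusted p = 0.0297).

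Among upstream factors, Irf5, a factor downstream of Toll-like receptors, differed by -0.62 ± 0.201 (SE; limma unadjusted p = 0.0127). Among other targets, Ly6e, a receptor-like surface protein, did not overlap, with 486 TPM or less in Siglec-XII and 491 TPM or more in controls (-0.45 ± 0.156, SE; limma unadjusted p = 0.0185). Tap1, the peptide transporter, and Slfn9 differed by -0.42 and -0.67 (limma unadjusted p = 0.0391 and 0.0361). Below the filter, Mb21d1, which encodes the DNA sensor cGAS, did not overlap either, at 0.983 to 1.67 TPM in controls and 0.333 to 0.731 TPM in Siglec-XII. The number past an unadjusted p was 1 without control 2, 3 without control 4, 18 without Siglec-XII sample 1, 3 without sample 3 and 4 without sample 4, and after median centering 1 was lower and 4 were higher. No share over all tested genes is given for these refits, so the counts, that of 18 included, are no result about the pathway.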

How the data were processed

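Distal colon RNA was measured in 4 control and 4 Siglec-XII samples, grouped by the labels. The authors deposited log2(TPM + 1) per gene; per the labels, TPM came from kallisto 0.45.0 on GRCm38, whereas the Methods name another version and a human reference. Members, lists and alternatives were chosen with earlier results of these data known. Symbols were looked up in the deposited table (of the members, only Irgm1 was repeated). Genes that reached 1 TPM in 4 or more samples were fitted with limma 3.58.1 (R 4.3.3; lmFit, eBayes with trend, no covariates, Benjamini-Hochberg adjustment over 13164 genes), after a test on simulated data. Positions are those of GENCODE M21, which held 98.3% of the identifiers. Shared windows are 31-base windows of a gene's transcripts found in another gene. Python 3.11.15, scipy 1.17.1 and matplotlib 3.10.9 were used for correlations and figures. TPM keeps no depth, so no counting interval was given, and precision is set by the spread over 4 samples a group.

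Named with values were the 10 members highest in control, the 8 with the smallest p, those whose groups did not overlap, the 6 with the largest SD, members below the filter that reached a TPM of 1, the 10 other genes most like the members' mean, and, of the pathway, ligands, receptors, kinases, STAT factors and genes past an unadjusted p or without overlap, of which 1 is not reported here. Rtp4, Ifi27l2a, S100a8, S100a9, Csf3r, Cxcr2, Ly6g, Gbp2, Xaf1 and the neighbors of the IFITM cluster were picked with their values in view. The alternatives tried were quantile normalization, median centering, a pseudocount of 0.1, no filter, a stricter filter (5 TPM), array weights, unmoderated variance, the replicate number as a block, each sample left out, and Siglec-XII samples 3 and 4 left out. Without these 2 samples together with median centering, and the correlations without control 2, were chosen after seeing the data.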

Additional observations from a re-analysis of the deposited data

Results flagged for a closer look

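In the 98 groups of 4 samples (49 members in 2 groups), the sample at one end stood apart from the other 3 by more of the group's range than Dixon's 95% limit allows in 4 groups, and chance flags about 1 in 20 groups, or 4.9. Irf9 was high in control 2, at 21.04 TPM (gap of 0.955 of the range). Oas1a was high in Siglec-XII sample 3, at 50.6 TPM (0.891), and Mx2 in the same sample, at 0.157 TPM (0.843). Xaf1, a pro-apoptotic interferon target, was high in Siglec-XII sample 4, at 8.57 TPM (0.861). Of all tested genes, 0.593% were flagged high in control 2, 0.213% in Siglec-XII sample 3 and 0.327% in Siglec-XII sample 4. Of the tested members, 1 was flagged high in each of these samples, and Mx2 was not tested. These flags are too few to set the members apart from other genes.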

How the results depend on the processing

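No member passed an adjusted p of 0.05 under any of 18 alternatives. Of 20 named members, 11 changed sign under at least 1 alternative, and Ifitm1, Ifitm2, Ifitm3, Ddx58, Igtp, Irf9, Stat2, Parp14 and Oas1a did not.

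The count of members past an unadjusted p (5) was 2 with a filter at TPM 5, 2 with median centering, 3 with quantile normalization, 1 without Siglec-XII samples 3 and 4, 0 when these were left out and samples were median centered, and 3 to 5 with single samples left out. The count whose groups did not overlap (1) was 0 with median centering, 2 with both changes and 1 to 4 with single samples left out. The count of pathway genes (7) was 4 at TPM 5, 4 with quantile normalization, 1 without Siglec-XII samples 3 and 4, 4 with both changes and 1 to 18 with single samples left out. With the replicate block it was 3, and that of the members 4. For none of these alternatives is the share over all tested genes given, so the counts describe only how the numbers moved. Same-numbered samples did not deviate together (r of -0.165, -0.204, 0.103 and -0.002), and r of differently numbered samples ran from -0.1665 to 0.26. No pairing by number was seen, but 4 such values cannot exclude one. The members' median difference was 0.0622 with median centering and 0.0215 with quantile normalization (from -0.23 to -0.02 with single samples left out). The median r among members was 0.570 without Siglec-XII samples 3 and 4 and 0.015 without control 2. The median control level (3.88 log2(TPM + 1)) was 3.69 to 4.16 with single controls left out.

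Signs changed as follows, in log2 units. With array weights Ifi27l2b was -0.0684, Irf1 0.0106 and Irf7 -0.0468. With median centering Irf1 was 0.20, Ifi27 0.19, Irf8 0.0622, Zbp1 0.0686, Parp9 0.11, Isg15 0.0655 and Oasl2 0.0888. With quantile normalization Irf1 was 0.093, Ifi27 0.082, Zbp1 0.0204, Parp9 0.064, Isg15 0.0762 and Oasl2 0.12. Without Siglec-XII samples 3 and 4 Irf1 was 0.16, Irf7 -0.15, Irf8 0.032, Zbp1 0.0458 and Parp9 0.074, and with median centering as well 0.18, -0.13, 0.0516, 0.0654 and 0.0936. With single samples left out, Ifi27l2b ranged from -0.0644 to 0.19, Irf1 from -0.18 to 0.069, Ifi27 from -0.13 to 0.0788, Irf7 from -0.0794 to 0.15, Parp9 from -0.21 to 0.0083, Isg15 from -0.48 to 0.23, Ifit3 from -0.56 to 0.18, Oasl2 from -0.35 to 0.32 and Ifit1 from -0.56 to 0.0724. The cause of these changes was not tested.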

Other observations

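Genes of the wider pathway list, named here after their values were seen, had an uneven baseline of the same kind. The immunoproteasome subunits, which shape peptides for MHC class I, were well expressed, with Psmb10 between 6.66 and 6.93, Psmb8 between 5.01 and 5.56 and Psmb9 between 4.15 and 4.58 log2(TPM + 1) in the 8 samples. The interferon gamma-induced chemokines Cxcl9 and Cxcl10 did not pass 0.325 and 1.447, and Ciita and Nlrc5, the master regulators of MHC class II and class I genes, did not pass 0.419 and 0.399.

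Control 2 was the highest sample for 29 of 40 tested further targets, where it was highest for 26.6% of all tested genes. In the other roles it was highest for 0 of 6 receptor chains and 3 of 5 kinases and STAT factors. It led for 3 of 10 upstream adaptors and factors and 3 of 7 negative regulators. Apol9a, an interferon-induced apolipoprotein, was at 2.12, 2.31, 0.62 and 1.42 log2(TPM + 1) in controls 1 to 4 and at 0.69, 0.91, 1.453 and 1.499 in Siglec-XII samples 1 to 4, highest in controls 1 and 2 as Isg15 and Ifit1 were.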
